A study of Mus musculus with 4 samples.

Results

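Most of the genes described here encode nuclear-encoded subunits of the 5 complexes of the respiratory chain. This machinery in the inner mitochondrial membrane passes electrons from food to oxygen and uses the energy to make ATP. They were chosen by name and by annotation as protein-coding. Every mouse symbol of the Ndufa, Ndufab1, Ndufb, Ndufc, Ndufs, Ndufv, Sdh, Uqcr, Cox4 to Cox8 and Atp5 series was taken. The name rule uses no measured value, although earlier results of these data were known when the members were chosen. The rule found 86 of the 55487 gene identifiers in the deposited count table, under 85 symbols: 36 for complex I, 4 for complex II, 8 for complex III, 20 for complex IV and 18 for complex V. Ndufa4 and Ndufa4l2 were placed with complex IV, the complex in which NDUFA4 is now known to sit. Names outside these series, such as Cyc1, were not taken, so the set does not hold every nuclear-encoded subunit. It does hold Cox7a2l and Atp5s, which were grouped apart from the structural subunits. One identifier, an additional Atp5o entry, had no count in any library.

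The series asks what loss of Ptip does to tooth formation. Ptip (Paxip1) encodes a subunit of the histone H3 lysine 4 methyltransferase complexes that contain MLL3 or MLL4. Bulk polyA RNA-seq libraries were made from 2 control samples carrying floxed Ptip alleles (Ptip f/f) and 2 knockout samples carrying the same alleles and Sp7-cre (Ptip f/f;Sp7-cre). All 4 samples came from C57 mice at postnatal day 30, and all carry the floxed allele. The labels give the tissue as dental pulp and the source as dental progenitor cells, sorted from lower incisors as CD45-, Ter119- and Tie2- cells and amplified as full-length cDNA. Sp7-cre is active in the osteoblast and odontoblast lineage, so other cells of the sort can keep an intact Ptip. Nothing in the labels says whether the 2 libraries of a group came from separate animals, so p-values measure only the spread between these libraries.

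The libraries held 15154246 and 15394782 counts in control and 19142757 and 17770831 in knockout libraries. Paxip1 itself had 407 and 696 counts in the controls, compared with 111 and 71 in the knockouts, or 28.3 and 44.3 against 5.69 and 3.98 CPM, the usual unit of counts scaled for library size. Its log2 fold change was -2.91, with adjusted p-values of 0.15 in edgeR and 9.0e-06 in DESeq2. The 15 genes that mark tooth mesenchyme summed to 1614 and 2097 CPM in control and 4853 and 4859 in knockout libraries. Of these, Msx1 alone had 724 and 847 CPM in the 2 controls, against 2912 and 2525 in the knockouts. Markers of cells the sort should remove were also present. The 16 leukocyte markers summed to 6523 and 2058 CPM in control and 1038 and 284 in knockout libraries, and the 11 erythroid markers to 768 and 715 against 211 and 187. The enamel-cell gene Ambn, at 18171 to 52583 CPM over the 4 libraries, shows RNA of dental epithelium in every library. In bulk RNA, fewer cells of a type and less RNA per cell cannot be told apart.

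Complex I takes electrons from NADH and complex II from succinate; both pass them through coenzyme Q to complex III, then through cytochrome c to complex IV, which reduces oxygen. Complexes I, III and IV pump protons, and complex V, the ATP synthase, makes ATP as the protons flow back. A small set of subunits of complexes I, III, IV and V is encoded in mitochondrial DNA, and all others are made in the cytosol from nuclear genes and imported. Several complex IV subunits come in a widely expressed form and a form restricted to muscle, lung or testis.

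Nuclear respiratory genes are textbook targets of the transcription factors NRF1, GABPA (an ETS factor, also called NRF2) and YY1, so their promoters were searched for 1 exact core of each on both strands: GCATGCGC for NRF1, CCGGAAGT for GABPA and AAGATGGC for YY1. RefSeq promoter windows (GRCm38.p6, 250 bases before to 50 bases after the start) were matched for 69 members, which had 74 windows. The NRF1 core was in 10 of the 74 windows (13.5%), against 2.7% of all 32851 windows of the table. YY1's core was in 10 as well (13.5%), against 2.7%. The GABPA core was in 5 (6.8%), against 3.9%. At least 1 core was in 24 windows (32.4%), against 8.8% of all windows, and in 0 of the 4 windows of tissue-restricted complex IV isoforms. Of the 10 windows with the YY1 core, 7 were among the 34 of complex I. A match is a description of the letters, not evidence of binding, and these libraries do not measure binding. The 250 bases before the start are shown for 1 promoter with each core, in capitals, and for Ndufa5, the member with the smallest p-value, whose window holds none of the 3. The Cox6a1 capitals are a forward and an overlapping reverse match to the NRF1 core. The Atp5h capitals are the GABPA core read on the opposite strand.
Cox6a1: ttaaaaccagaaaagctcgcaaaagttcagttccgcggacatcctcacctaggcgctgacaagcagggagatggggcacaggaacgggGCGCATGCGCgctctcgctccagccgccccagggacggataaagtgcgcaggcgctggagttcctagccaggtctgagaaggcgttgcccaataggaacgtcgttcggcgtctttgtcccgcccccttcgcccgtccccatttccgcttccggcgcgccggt
Atp5h: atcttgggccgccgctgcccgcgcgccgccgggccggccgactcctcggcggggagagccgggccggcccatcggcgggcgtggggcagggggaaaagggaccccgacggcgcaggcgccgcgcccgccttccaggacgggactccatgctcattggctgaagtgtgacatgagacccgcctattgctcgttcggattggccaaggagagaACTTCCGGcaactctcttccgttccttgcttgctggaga
Atp5j: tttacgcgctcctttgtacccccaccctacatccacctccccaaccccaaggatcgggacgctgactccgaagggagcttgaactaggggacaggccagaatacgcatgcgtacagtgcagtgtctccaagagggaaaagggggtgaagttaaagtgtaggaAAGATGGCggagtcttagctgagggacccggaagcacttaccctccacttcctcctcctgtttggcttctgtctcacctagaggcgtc
Ndufa5: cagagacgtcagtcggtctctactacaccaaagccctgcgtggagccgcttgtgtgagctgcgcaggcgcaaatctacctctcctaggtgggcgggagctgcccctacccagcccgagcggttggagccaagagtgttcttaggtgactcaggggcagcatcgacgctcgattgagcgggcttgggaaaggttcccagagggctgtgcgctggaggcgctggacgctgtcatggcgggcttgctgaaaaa
All 4 lie on the minus strand of GRCm38, at chr5:115348959-115349208 for Cox6a1, chr11:115419920-115420169 for Atp5h, chr16:84834977-84835226 for Atp5j and chr6:24527527-24527776 for Ndufa5, and are written 5′ to 3′ on the gene's strand. Atp5j and Ndufa5 each have another annotated start, whose window holds none of the cores.

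Of the 86 identifiers, 85 had a count and 81 passed the filter on low counts and were tested. The 5 that did not pass were the empty Atp5o entry and the complex IV isoforms Cox7a1, Cox7b2, Cox8b and Cox8c. No member passed an adjusted p of 0.05 in edgeR's quasi-likelihood test, where 0% of the 17128 genes tested passed. The smallest adjusted p of any member was 0.208, for Ndufa5. At an unadjusted p under 0.05, 1 member was on the higher side, Ndufa5, against 7.32% of all genes tested, and 1 on the lower side, Cox6a2, against 9.89%. DESeq2 called 1 member, Cox6a2, lower, where it called 5.69% of genes lower and 8.41% in either direction.

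The members lay mostly on the positive side, but the groups overlapped for most of them. The fitted log2 fold change (knockout over control) was positive for 66 of the 81 tested members and negative for 15, with a median of 0.31, against 0.00 for all genes tested. Both knockout libraries were above both controls for 21 members (25.9%), next to 25.8% of all genes tested. Both were below for 4 members (4.94%), against 24.9% of all genes. Around each gene's own mean over the 4 libraries, the members' median log2 CPM was 0.18 and -0.49 in the controls, compared with 0.43 and -0.10 in the knockouts. Knockout 1 was the highest library for 55 members (67.9%, against 24.1% of all genes), and control 2 the lowest for 70 (86.4%, against 20.9%). The median log2 fold change was 0.72 without control 1, -0.01 without control 2, 0.02 without knockout 1 and 0.63 without knockout 2.

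**Figure D1:**
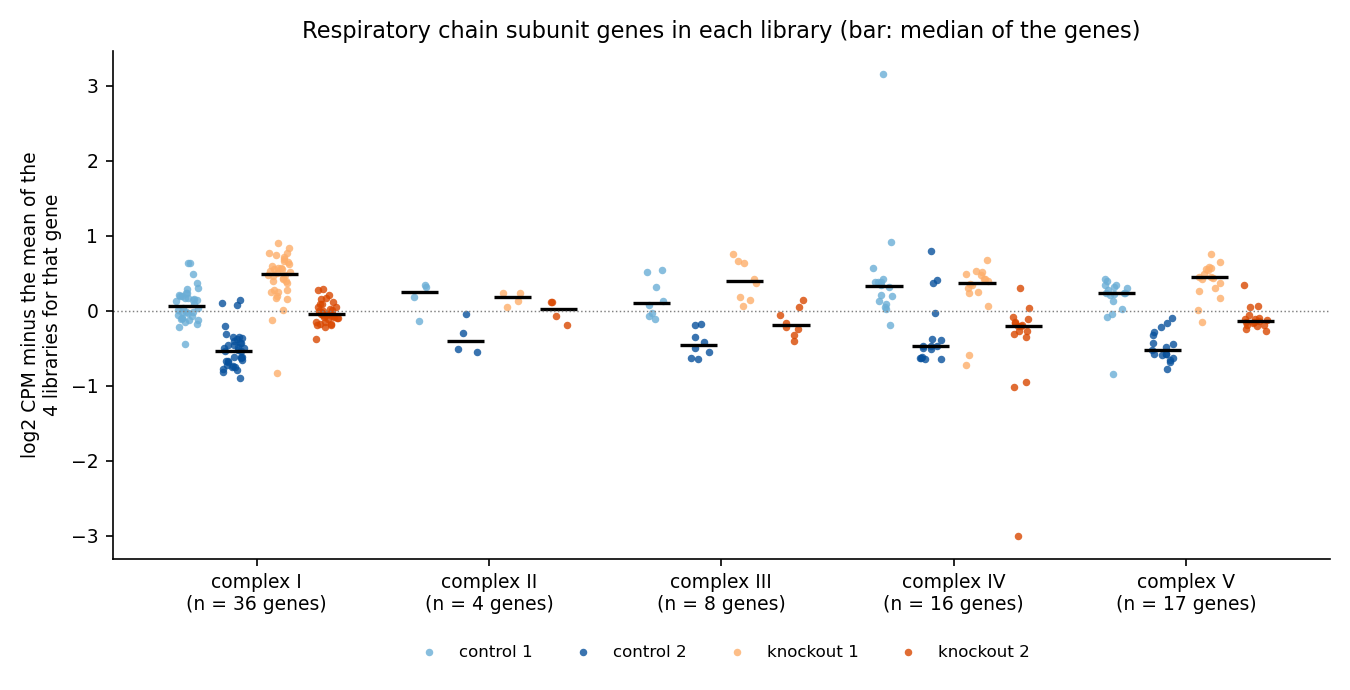
Each point is 1 tested subunit gene in 1 library, as log2 CPM minus that gene's mean over the 4 libraries (y axis), grouped by complex (x axis) and coloured by library; black bars are medians over the genes. In complex I the medians are 0.06 and -0.53 in the 2 controls, against 0.49 and -0.04 in the knockouts. The 2 libraries within each group differ, and control 1 lies above knockout 2, so the groups overlap.

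The members' mRNAs are short, with a median transcript length of 861 bases against 2743 for all genes tested, and library differences followed transcript length. Among the 1926 other genes under 1 kb, control 1 was above control 2 by a median of 0.42 on the log2 scale and knockout 1 above knockout 2 by 0.56. The 48 members under 1 kb had medians of 0.73 and 0.63 in the same comparisons. The fitted knockout-over-control difference had a median of 0.41 for these 48 members and -0.07 for the 1926 others. For the 25 members of 1 to 2 kb it was 0.20, against 0.07 for 3689 others; only 8 members are longer. A fit with each library's own trend on transcript length removed, added after seeing the data, gave a median of 0.35 over the members. The same fit on the joined length of all exons of a gene gave 0.29.

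**Figure D2:**
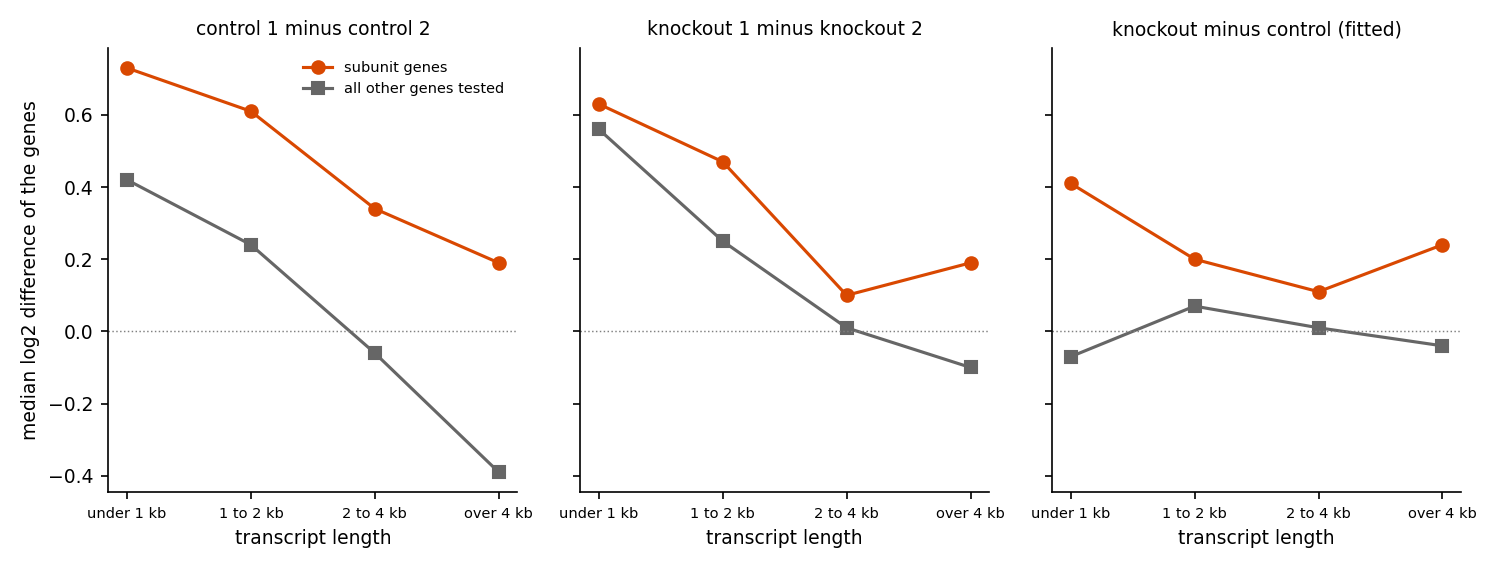
Median log2 difference (y axis) by transcript length (x axis) for the subunit genes and all other genes tested, between the libraries of each group in the left and middle panels and between the groups in the right panel. Both sets decline with length within the controls, and the members lie above the others in each panel; the bins of 2 to 4 kb and over 4 kb hold 6 and 2 members.

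Complex I had the highest median log2 fold change of the 5 complexes, 0.46 (0.11 to 0.80 with 1 library left out), with 32 of 36 values positive, 13 genes (36.1%, next to 25.8% of all genes tested) with both knockouts above both controls and 0 below (against 24.9%). None passed the test. Its 29 accessory subunits, which surround the catalytic core and are needed to assemble and hold it, had a median of 0.47 and 28 positive values. The 7 core subunits of the matrix arm, where NADH is oxidised, had a median of 0.31, with 4 positive and 3 negative. The complex took 0.281% and 0.198% of all counts in the 2 controls, against 0.362% and 0.264% in the knockouts, so control 1 and knockout 2 were close.

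Ndufa5 (ENSMUSG00000023089, chromosome 6, 24518666 to 24528013, minus strand), an accessory subunit of the matrix arm, stood furthest from 0 on the higher side. Its level was 33.2 and 28.3 CPM in the controls (30.8 ± 3.47, SD, n = 2) and 81.4 and 54.8 in the knockouts (68.1 ± 18.8, SD, n = 2). Both knockouts were above both controls, at a log2 fold change of 1.15 (SE 0.38) and an edgeR adjusted p of 0.208. With each library left out in turn its log2 fold change ranged from 0.84 to 1.45. Ndufb4, an accessory subunit of the membrane arm, had 25.2 and 15.0 CPM in control and 47.0 and 34.2 in knockout libraries, a log2 fold change of 1.01 (SE 0.43, edgeR adjusted p 0.293). Ndufa13, also known as GRIM-19, had 101 and 62.6 CPM against 177 and 120 (log2 fold change 0.86, edgeR adjusted p 0.324). An exon of Ndufa13 overlaps Tssk6 on the other strand by 375 bases. Ndufc1, a small membrane-arm subunit, had 49.4 and 32.5 CPM against 101 and 52.3 (log2 fold change 0.90, edgeR adjusted p 0.363). The groups do not overlap for any of these 4, although in Ndufc1 the gap between control 1 and knockout 2 is narrow. Ndufa2 and Ndufa7, the complex I members with the most counts per kilobase, had 114 and 64.7 against 144 and 96.1 CPM, and 87.7 and 52.6 against 119 and 75.9. In both, control 1 lay between the knockouts.

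The core subunits did not share 1 direction. Ndufv1 and Ndufv2 form the NADH-binding tip of complex I together with Ndufs1. Ndufv1 had 205 and 132 CPM in the controls, compared with 209 and 209.6 in the knockouts, a log2 fold change of 0.31. Ndufv2 had 146 and 109 against 236 and 169.8, a log2 fold change of 0.67 (SE 0.35, edgeR adjusted p 0.396). Ndufs1, the largest core subunit, was level, with 101 and 114 CPM in the 2 controls, against 107 and 102 in the knockouts. Ndufs3, Ndufs7 and Ndufs8 belong to the part of the arm that hands electrons to coenzyme Q. Ndufs3 had 71.6 and 52.1 CPM against 101 and 73.0, and its groups separate by a narrow margin. Ndufs7 had 97.8 and 74.4 against 129 and 92.6, with overlapping groups. Ndufs8 had 187 and 89.4 against 134 and 92.8, and control 1 was the highest library. The sources used here do not say that counting used strand, so reads of genes that overlap on opposite strands cannot be told apart. Ndufb2 had the lowest level per kilobase in complex I, with 8.30 to 9.99 CPM in all 4 libraries. Its reference transcript has 4371 bases, so its level per kilobase depends on which transcript is present. An exon of Ndufb2 overlaps Braf by 146 bases on the other strand.

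Complex II, succinate dehydrogenase, also works in the TCA cycle and is the only complex with all subunits nuclear-encoded. Its 4 genes had a median log2 fold change of 0.15, 3 of them positive and none called. That median ran from -0.15 without control 2 to 0.47 without control 1. Sdha, the flavoprotein that oxidises succinate, had the smallest spread of the 4: 330.5 and 353 CPM in the controls, compared with 375 and 395 in the knockouts, both knockouts above both controls at a log2 fold change of 0.17 (SE 0.31, edgeR adjusted p 0.845). Sdhb, the iron-sulfur subunit, had 224 and 127 CPM against 212 and 172. The membrane anchors were Sdhc, with 79.1 and 47.7 against 82.4 and 75.4, and Sdhd, with 195 and 124 against 167 and 134. In these 3 genes control 2 was the lowest library and the groups overlapped.

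Complex III had a median log2 fold change of 0.32 over 8 genes, with 3 above (37.5%), 0 below and none called. Over all genes tested, 25.8% were above and 24.9% below. Its 5 small subunits had a median of 0.46 (-0.04 to 0.86 with 1 library left out) and its 3 larger subunits -0.00 (-0.34 to 0.30). Uqcrc1, a core protein and the most abundant complex III mRNA per kilobase, had 713 and 447 CPM in the 2 controls, against 649 and 510.2 in the knockouts. Those groups overlap fully, at a log2 fold change of -0.00. Uqcrc2, the other core protein, had 158 and 143 CPM against 178 and 167 (log2 fold change 0.20). Uqcrfs1, the Rieske iron-sulfur protein, had 194 and 119 against 142 and 103 (log2 fold change -0.36, SE 0.38, edgeR adjusted p 0.703). Uqcr10, a small membrane subunit, had 77.8 and 53.1 CPM against 139 and 78.7 (log2 fold change 0.73, SE 0.41, edgeR adjusted p 0.426). Control 1 and knockout 2 of Uqcr10 were nearly equal.

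**Figure D3:**
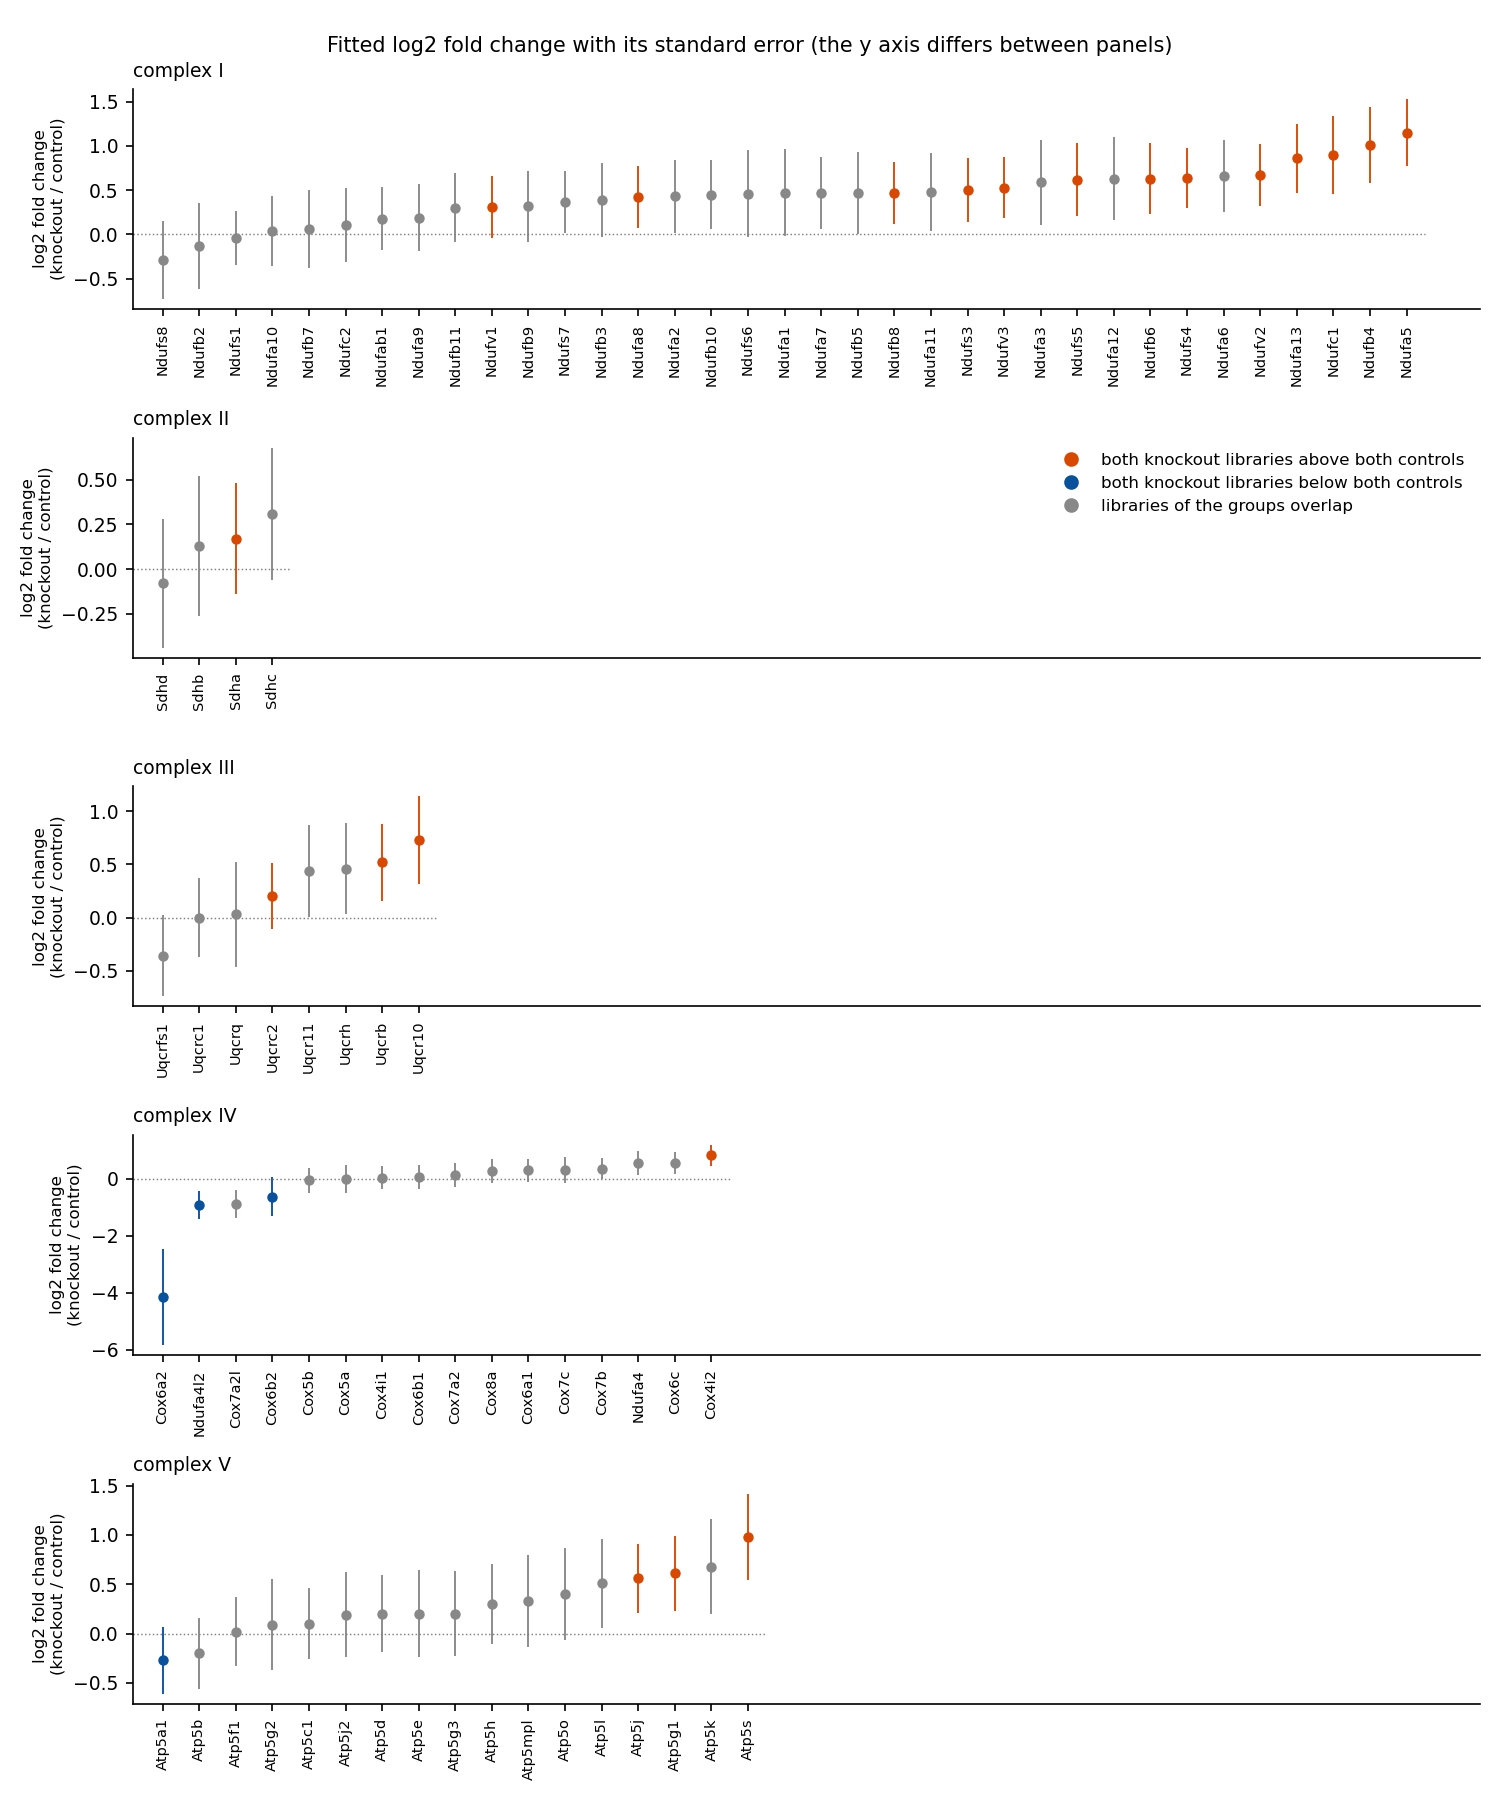
Fitted log2 fold change, knockout over control (y axis, which differs between panels), with its standard error for the tested genes shown, ordered within each complex; colours mark whether the 2 knockout libraries lie beyond the 2 controls. In complex I 32 values are positive, and Cox6a2 in complex IV is the lowest at -4.15.

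Complex IV is cytochrome c oxidase. Its 11 widely expressed subunits had a median log2 fold change of 0.27 (-0.17 without control 2 to 0.71 without control 1). In 0 of the 11 did the groups separate, where 25.8% of all genes tested were above and 24.9% below. Its 4 tested tissue-restricted isoforms had a median of -0.79 (-1.05 to -0.63 with 1 library left out), with 1 above and 3 below. The difference between the 2 classes was not tested. Cox4i1, the widely expressed subunit 4 and the highest member per kilobase in the table at 603 CPM per kb, had 588 and 325 CPM in control and 529 and 402 in knockout libraries, with the groups overlapping. Cox5a and Cox5b, small subunits bound to the catalytic core, had 75.7 and 32.9 against 64.9 and 41.2 CPM, and 79.1 and 44.7 against 72.8 and 46.3. Both had a log2 fold change close to 0, and in both the 2 libraries of each group differed more than the groups did. The widely expressed Cox6a1, Cox6b1, Cox7a2, Cox7b and Cox8a had log2 fold changes of 0.29, 0.05, 0.11, 0.35 and 0.27. Cox8a, second in the complex per kilobase, had 177 and 91.7 CPM against 191 and 133. Ndufa4 had 107 and 65.5 CPM against 160.5 and 90.7 (log2 fold change 0.54).

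Cox4i2 (ENSMUSG00000009876, chromosome 2, 152754173 to 152765037, plus strand) is the subunit 4 isoform known from lung and for its induction by low oxygen. It had 31.1 and 22.7 CPM in the controls (26.9 ± 5.96, SD, n = 2) and 50.6 and 43.5 in the knockouts (47.1 ± 4.98, SD, n = 2). Both knockouts were above both controls, at a log2 fold change of 0.81 (SE 0.37, edgeR adjusted p 0.332). Since Cox4i1 was level, Cox4i2 made up a larger share of the subunit 4 mRNA per kilobase: 5.24% and 6.8% in the controls, 9.07% and 10.2% in the knockouts. That share lies apart between the groups, and 2 libraries a group cannot pass an exact permutation test.

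Ndufa4l2 (ENSMUSG00000040280, chromosome 10, 127514967 to 127517154, plus strand), a paralog of Ndufa4 known as a target of the hypoxia factor HIF1, went the opposite way. Its level was 14.8 and 23.6 CPM in the controls (19.2 ± 6.22, SD, n = 2) and 8.15 and 11.8 in the knockouts (9.99 ± 2.60, SD, n = 2). Both knockouts were below both controls, at a log2 fold change of -0.94 (SE 0.49, edgeR adjusted p 0.383). It overlaps 32 exonic bases of the more abundant Shmt2 on the other strand. Its share of the Ndufa4 pair per kilobase was 8.29% and 19.1% in the controls, compared with 3.21% and 7.85% in the knockouts. So Cox4i2 and Ndufa4l2, both described elsewhere as responsive to low oxygen, had opposite signs here.

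Cox6a2 (ENSMUSG00000030785, chromosome 7, 128205435 to 128206387, minus strand), the heart and skeletal muscle isoform of subunit 6A, had few counts: 120 and 18 in the 2 controls, against 10 and 0 in the knockouts. That is 8.34 and 1.15 CPM against 0.513 and 0, so control 1 carries most of it. Its log2 fold change was -4.15 (SE 1.68), with adjusted p-values of 0.273 in edgeR and 0.0282 in DESeq2. Without control 1 it was -2.08, with an edgeR adjusted p of 0.788; that fit has 1 control library, assumed to vary as the knockouts do. Skeletal muscle markers lay lower in the knockout libraries. Of the 13 listed, 8 were tested, with a median of -1.70. In 6 of these (75.0%, against 24.9% of all genes tested) both knockouts were below both controls. None was called by edgeR and 1 was called lower by DESeq2, against 5.69% of all genes. The muscle markers summed to 30.7 and 34.6 CPM in control and 13.6 and 9.64 in knockout libraries, with Tnnc2 at 0 in every library. The low-count filter needs enough counts in only 2 libraries, so genes this low, Cox6a2 among them, can pass through the controls alone. The median and the share below of the 8 tested markers can lean to lower values for that reason, which was not tested. The leukocyte markers summed to 6523 and 2058 CPM in control and 1038 and 284 in knockout libraries. An exon of Cox6a2 overlaps Itgad by 70 bases on the other strand. Itgad had 38 and 8 counts in control and 14 and 22 in knockout libraries. The part of muscle RNA, leukocyte RNA or Itgad reads in the Cox6a2 values was not tested. Cox6b2, the testis isoform of subunit 6B, had 7.30 and 7.19 CPM against 6.66 and 2.69, with knockout 2 alone clearly low.

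The remaining restricted isoforms were at or near the count limit. Cox7a1, the muscle and brown fat isoform, had 0.308 to 0.897 CPM in the 4 libraries. Cox7b2, Cox8b and Cox8c had 3 counts or fewer in every library, where 3 counts correspond to 0.154 to 0.209 CPM. Cox7a2l has been described elsewhere as promoting assembly of respiratory supercomplexes from complexes III and IV, which these libraries do not measure. It had 186 and 97.0 CPM in the controls, compared with 103 and 51.2 in the knockouts, a log2 fold change of -0.88 (SE 0.49, edgeR adjusted p 0.421). Knockout 1 lay above control 2, so its groups overlap. Its processed pseudogene copy Gm6969, which matches it at 98.0% over 342 bases, lay higher in the knockouts. The copy had 53 and 50 counts in control and 355 and 301 in knockout libraries, where Cox7a2l had 2682 and 1524 against 2015 and 914. The copy's counts were thus 2.0% and 3.3% of the gene's in the controls, compared with 17.6% and 32.9% in the knockouts. The level of Cox7a2l is therefore uncertain, and the part of the copy in its difference was not tested.

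**Figure D4:**
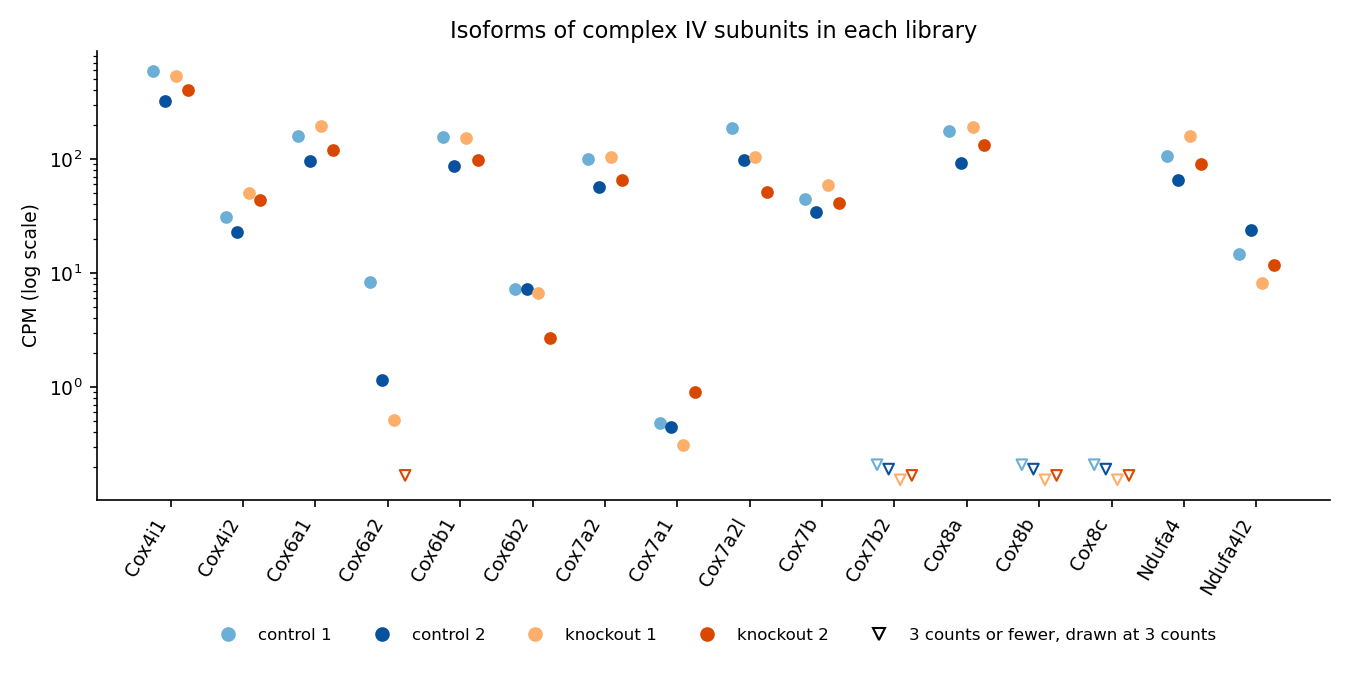
CPM on a log scale (y axis) of complex IV subunit isoforms (x axis) in each of the 4 libraries; open triangles mark 3 counts or fewer and are drawn at the CPM of 3 counts. Cox4i2 is higher in both knockouts, Ndufa4l2 and Cox6a2 are lower in both, and Cox7b2, Cox8b and Cox8c stay at the limit.

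Complex V, the ATP synthase, took the most counts of the 5 complexes in both controls and knockout 2, and slightly fewer than complex I in knockout 1. Its share was 0.368% and 0.265% in the 2 controls, against 0.357% and 0.287% in the knockouts. Its 17 tested genes had a median log2 fold change of 0.20, with 3 above (17.6%), 1 below (5.88%) and none called. Over all genes tested, 25.8% were above and 24.9% below. The 5 subunits of the F1 head had a median of 0.10 and the 8 tested subunits of the stalks and membrane part 0.37. Atp5b, the catalytic beta subunit, had 1399 and 917 CPM in control and 1079 and 932 in knockout libraries, with overlapping groups. Atp5a1, the alpha subunit, had 952 and 698 against 676 and 694. Atp5a1 is the 1 complex V gene with both knockouts below both controls, and knockout 2 lay next to control 2 (log2 fold change -0.27, SE 0.34, edgeR adjusted p 0.752). Atp5s, coupling factor B, is not counted among the structural subunits of the synthase. Its level was low: 10.7 and 17.2 CPM in the controls, compared with 30.4 and 24.6 in the knockouts (log2 fold change 0.98, SE 0.44, edgeR adjusted p 0.319).

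Atp5g1, Atp5g2 and Atp5g3 encode the same mature c subunit of the rotating ring behind different import signals. Atp5g1 had 66.0 and 45.3 CPM in the 2 controls, against 99.6 and 70.3 in the knockouts, with the groups apart (log2 fold change 0.61, SE 0.38, edgeR adjusted p 0.471). Atp5g2 had 42.3 and 20.9 against 38.8 and 28.4, and Atp5g3 had 50.7 and 32.1 against 59.1 and 35.7, both overlapping. Per kilobase, Atp5g1 made up 9.85% and 11.6% of the 3 mRNAs in control and 13.5% and 14.5% in knockout libraries. Its reference transcript of 4715 bases is far longer than those of Atp5g2 and Atp5g3, so its level per kilobase depends on which transcript is present. Pseudogene copies held counts equal to 15.69% of those of Atp5g1.

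Mitochondrially encoded subunits did not follow the nuclear ones across libraries. The nuclear members took 1.04% and 0.733% of counts in the controls, compared with 1.14% and 0.864% in the knockouts, while the 13 mitochondrial genes took 0.507% and 0.78% against 0.868% and 0.436%. Mitochondrial counts per nuclear count were therefore 0.487 and 1.06 in the 2 controls, against 0.758 and 0.504 in the knockouts, overlapping fully. The 10 mitochondrial genes tested had a median log2 fold change of 0.06 (-0.47 without knockout 1 to 0.53 without knockout 2), and none was called. The complex III gene mt-Cytb had 1792 and 3012 CPM against 3696 and 1674, and the complex I gene mt-Nd1 1117 and 1691 against 1784 and 1129. The complex IV gene mt-Co1, with 1607 and 1637 against 1402 and 733, was the 1 tested gene with both knockouts below both controls (log2 fold change -0.60, edgeR adjusted p 0.509). In contrast, mt-Co2, mt-Co3, mt-Atp6, mt-Nd3 and mt-Nd4l had at most 5.22 CPM in any library. These 5 have annotated nuclear copies on chromosome 1 that match them at 99.7% to 100% over nearly their whole length, and their levels here are uncertain. No such copy was found for mt-Atp8, which had at most 0.573 CPM.

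**Figure D5:**
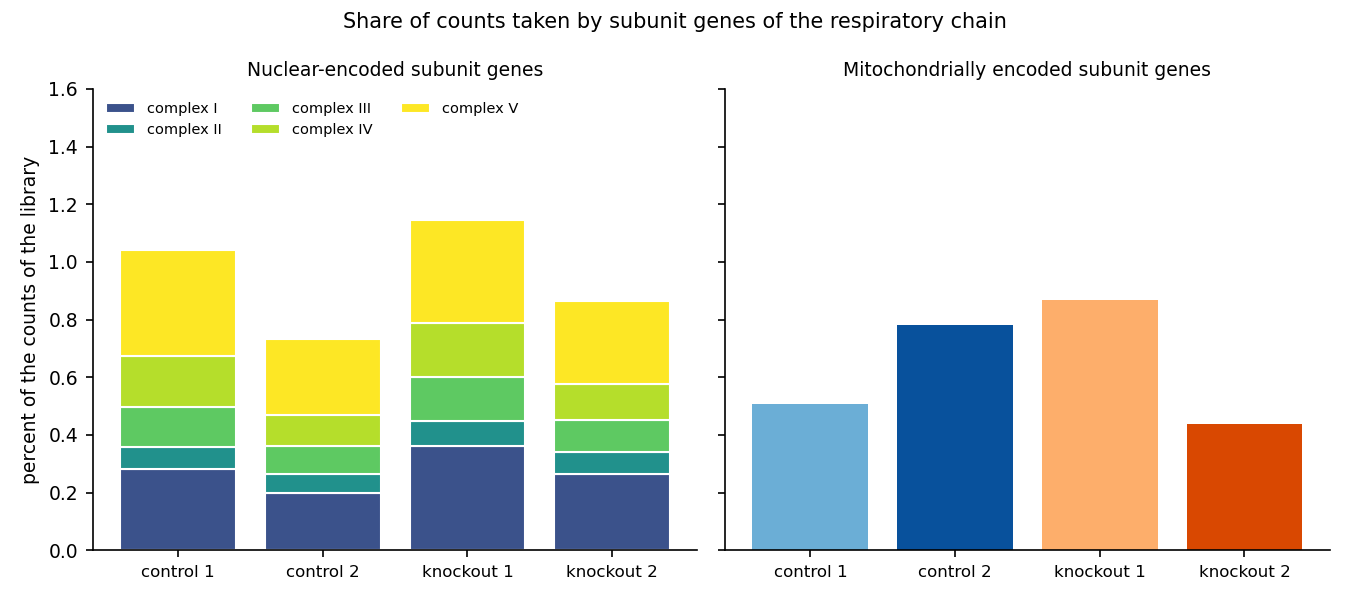
Percent of all counts in each of the 4 libraries (x axis) taken by the nuclear-encoded subunit genes, stacked by complex (left), and by the 13 mitochondrially encoded subunit genes (right). The nuclear share is highest in knockout 1 at 1.14% and lowest in control 2 at 0.733%, whereas the mitochondrial share is lowest in knockout 2 at 0.436%.

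The other genes of the pathway were taken from lists by role. EdgeR called 0 genes in any of them, nor did DESeq2 in any pathway list. For comparison with the shares in each list, 25.8% of all genes tested had both knockouts above both controls and 24.9% had both below. Assembly factors of complex I, such as Ndufaf5, which modifies the core subunit Ndufs7, had a median log2 fold change of 0.31, with 6 of 15 above and 2 below. Ndufaf5 itself had 4.87 and 4.90 CPM against 14.0 and 9.42 (log2 fold change 1.26, SE 0.54, edgeR adjusted p 0.296). Assembly factors of complexes II, III and IV had medians of 0.30, 0.03 and -0.16, each of which changed sign with 1 library left out. Taco1, a complex IV factor needed to translate mt-Co1, had 12 and 5.09 CPM against 4.46 and 2.80 (log2 fold change -1.23, edgeR adjusted p 0.428). Those of complex V had a median of 0.49, with 3 of 6 above (50.0%) and 0 below. Among them Atpif1, the inhibitor that stops the ATP synthase from running backwards, had 59.7 and 47.7 CPM against 115 and 77.6 (log2 fold change 0.84, edgeR adjusted p 0.30). The carriers had a median of 0.27, with 5 of 11 above (45.5%) and 0 below. Slc25a4, an exchanger of ADP for ATP, had 374 and 388 CPM in control and 823 and 645 in knockout libraries (log2 fold change 0.95, SE 0.33, edgeR adjusted p 0.221). Its paralog Slc25a5 was level, with 548 and 443 against 499 and 448. Ckmt1, a mitochondrial creatine kinase, had 43.5 and 7.70 CPM against 9.79 and 3.08, so control 1 was high and the groups overlapped (log2 fold change -1.99, edgeR adjusted p 0.325). Coenzyme Q genes had a median of 0.14 (-0.31 without control 2), with 3 of 13 above (23.1%) and 3 below (23.1%). Coq8a, an atypical kinase needed for coenzyme Q synthesis, had 192 and 69.6 CPM in the controls, compared with 47.5 and 55.0 in the knockouts (log2 fold change -1.35, SE 0.51, edgeR adjusted p 0.246). Both knockouts were below both controls, and control 1 stood apart from the other 3 libraries. TCA cycle genes had a median of 0.20, with 5 of 17 above (29.4%) and 3 below (17.6%). Sucla2 and Suclg2, the beta subunits of succinyl-CoA ligase, had log2 fold changes of 0.94 and 0.97 (edgeR adjusted p 0.234 and 0.240). Idh3g, a subunit of the NAD-dependent isocitrate dehydrogenase, had 202 and 159.9 CPM against 129 and 98.4, both knockouts lower (log2 fold change -0.67, edgeR adjusted p 0.373).

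Regulators of mitochondrial biogenesis had a median log2 fold change of -0.40 over 18 genes. It was -0.49 without control 1, -0.02 without control 2, -0.18 without knockout 1 and -0.29 without knockout 2. Both knockouts were above both controls for 4 (22.2%) and below for 6 (33.3%), next to 25.8% and 24.9% of all genes tested. Ppargc1a, the coactivator PGC-1alpha that drives respiratory genes, had 2.09 and 2.93 CPM in the controls, compared with 11.4 and 7.17 in the knockouts (log2 fold change 1.88, SE 0.65, edgeR adjusted p 0.218). Esrrg, a nuclear receptor partner of PGC-1alpha, had 0 and 0.0636 CPM against 1.08 and 1.91. By contrast Nrf1 had 96.4 and 71.5 CPM against 36.1 and 55.7 (log2 fold change -0.87, edgeR adjusted p 0.307). Gabpb1, the partner chain of GABPA, had 163 and 90.6 against 77.0 and 49.0 (log2 fold change -1.01, edgeR adjusted p 0.292). Gabpa and Yy1 had log2 fold changes of -0.19 and -0.51, with overlapping groups. Tfb1m, a mitochondrial rRNA methyltransferase, had 17.4 and 10.6 against 7.69 and 3.19 (log2 fold change -1.36, edgeR adjusted p 0.328), and Tfam, which packages mitochondrial DNA, 51.2 and 25.3 against 31.3 and 17.4, with overlapping groups.

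Mitochondrial ribosomal protein genes, also short and nuclear-encoded, showed the library pattern of the members. Replicate 1 was above replicate 2 in both groups for 71 of 77 of them (92.2%), for 79 of 82 cytosolic ribosomal protein genes (96.3%) and for 73 of 81 members (90.1%), against 31.7% of all genes tested. Their median log2 fold changes were 0.15 for the mitochondrial and -0.13 for the cytosolic ribosomal genes, against 0.31 for the members. With 1 library left out these ran from -0.16 to 0.56, from -0.59 to 0.30 and from -0.01 to 0.72, so all 3 changed sign. Marker lists of other cell types were described in the same way. For comparison, 25.8% of all genes tested were above and 24.9% below, and DESeq2 called 8.41% in either direction and 5.69% lower. The 14 tested dental mesenchyme markers had a median of 1.0, with 10 having both knockouts above both controls; DESeq2 called 7 of them higher and 1 lower. The leukocyte markers had a median of -2.55, with 12 of 15 below and 5 called lower by DESeq2. The erythroid markers had a median of -2.08, with 11 of 11 below and 8 called lower by DESeq2. Dental epithelium markers had a median of -1.15, with 8 of 13 below and 2 called lower by DESeq2. Their summed CPM overlapped between the groups, at 63864 and 22943 in control and 35012 and 42122 in knockout libraries. Schwann cell markers had a median of -1.47, with 5 of 9 below, 2 above and 5 called lower by DESeq2. Odontoblast markers had a median of -0.68, with 4 of 8 below, 1 above and 1 called higher by DESeq2. Their summed CPM overlapped as well, at 18507 and 41493 in control and 15468 and 26415 in knockout libraries. Endothelial, pericyte and brown adipocyte markers had medians of -0.51, -0.23 and -1.61, with 5 of 10, 3 of 10 and 3 of 4 below. DESeq2 called 0, 1 and 1 of them lower. Only 4 of the 8 brown adipocyte markers were tested, and genes this low can pass the low-count filter through 1 group alone. The pericyte median changed sign without control 2 and without knockout 1. Markers in these lists called by edgeR numbered 0. The part of these cell types in the members' values was not tested.

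Some members share sequence with other genes. Of the 86, 22 have processed pseudogenes that match at 95% or more over at least 100 bases, 46 in all. Counts on those copies equalled 0.771% and 0.704% of the members' own in the 2 controls, against 0.963% and 1.034% in the knockouts. For 8 members the copies held over 5% of the gene's counts, with Cox7c at 26.99% and Atp5l at 16.34%, so the levels of these genes are uncertain. An exon of 30 members overlaps another gene, which is protein-coding for 25. A further 13 symbols that match the name series are not annotated as protein-coding and were left out. Of these, 12 are processed pseudogenes and 1, Ndufb1-ps, is a noncoding entry that had 921 and 584 counts in control and 493 and 210 in knockout libraries.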

How the data were processed

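The deposited table holds whole-number counts per gene for 4 libraries, made by the authors with Trim Galore 0.6.6, Bowtie2 2.3.5.1 and featureCounts 2.0.1 on GRCm38, per the submitters' processing notes. The sources used here do not give the strand setting or the annotation release. Bowtie2 does not split reads across introns, so on a genome index reads over exon junctions can be lost. Identifiers were matched to GENCODE M21 for symbols, positions and transcript lengths. All 4 libraries entered edgeR 4.0.16 (R 4.3.3) with TMM scaling, filterByExpr and a two-sided quasi-likelihood F test on genotype, adjusted by Benjamini-Hochberg over 17128 genes at a threshold of 0.05. CPM (counts scaled to TMM-adjusted library size) were used for levels. Levels per kilobase use the principal transcript. DESeq2 1.42.0, limma 3.58.1 (voom), other scalings and filters, length offsets and leaving out each library were alternatives. The scripts were tested on data simulated with a smaller spread between libraries than seen here, so that test does not measure power in these data. With 2 libraries a group and a biological coefficient of variation of 49.2%, small differences are not detectable, and large ones can also miss the threshold. EdgeR called 0 of the 17128 genes, and Paxip1, at a log2 fold change of -2.91, had an edgeR adjusted p of 0.15. A member without a call can therefore still differ by a large fold. Libraries of 1 group differed beyond counting noise (chi-square per gene 130 for controls, 79.5 for knockouts).

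The members and all gene lists were chosen with earlier results of these data known. Genes were named by a rule: core subunits, paired isoforms, the 6 smallest p-values on each side, the 2 highest per kilobase in each complex, all mitochondrially encoded genes and biogenesis regulators as candidates, and at most 2 a direction from each other list. Ndufb2, Cox7c, Atp5l, Ndufb1-ps and Tnnc2 were named after their values were seen, and the Atp5h and Atp5j promoters were shown for their matches. Protein sequences were not used here. The values of 1 member are not reported here, although it is counted in the totals.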

Additional observations from a re-analysis of the deposited data

How the results depend on the processing

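Under 13 alternative settings, 0 members were called higher. With edgeR and no low-count filter 1 was called lower, Cox6a2 (adjusted p 0.0182); DESeq2 also called 1 lower (adjusted p 0.0282). Over all settings of Cox6a2 the adjusted p ran from 0.00735, without knockout 1 where the remaining knockout has 0 counts, to 0.788 without control 1; each of these fits has 1 library in an arm, assumed to vary as the other group does. Leaving out 1 library at a time gave 0 to 1 lower calls, 21 to 72 members above and 5 to 26 below; the extremes were without control 1 (72 above), without knockout 2 (58 above) and without control 2 (26 below). With 1 against 2 libraries, separation is also more frequent in all genes: without control 1, 35.9% were above, next to 87.8% of members; without knockout 2, 37.2% next to 71.6%; and without control 2, 39.8% were below, next to 31.7% of members. The stricter filter gave 7 below instead of 4, and the share of all genes below under that filter is not given here. The median log2 fold change of the members kept its sign except without control 2 and ran from -0.01 to 0.72. Without 1 library, medians ran from -0.05 to 0.73 for complex III, -0.32 to 0.60 for complex IV and -0.14 to 0.71 for complex V, each highest without control 1.

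Replicate numbers are not stated to pair the samples. Across all genes tested the control 1 minus 2 difference correlated with knockout 1 minus 2 at 0.145, and across the 81 members at 0.603. With the replicate block the count of calls among members stayed 0 and their median was 0.35.

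Of 41 named members fitted, 23 kept their sign under every setting. Under other settings, 5 changed sign: Uqcrc1 at 0.03 with limma-voom and with the replicate block; Cox4i1 at -0.01 with DESeq2 size factors, -0.06 with the stricter filter and -0.05 with the length offset; Cox5a at 0.06 with limma-voom, 0.05 with the replicate block and 0.10 with the transcript length offset, which was added after seeing the data; Atp5g2 at -0.00 and Cox6b1 at -0.04 with the stricter filter. With 1 library left out at a time, 18 changed sign, with log2 fold changes of Ndufs1 -0.10 to 0.04, Ndufs8 -0.76 to 0.37, Ndufv1 -0.01 to 0.69, Sdhb -0.26 to 0.63, Sdhc -0.04 to 0.75, Sdhd -0.41 to 0.31, Uqcrc1 -0.34 to 0.40, Uqcrfs1 -0.71 to 0.07, Cox4i1 -0.38 to 0.55, Cox5a -0.56 to 0.72, Cox5b -0.45 to 0.44, Atp5b -0.51 to 0.16, Atp5g2 -0.37 to 0.71, Atp5g3 -0.20 to 0.59, Cox6a1 -0.09 to 0.73, Cox6b1 -0.36 to 0.57, Cox7a2 -0.28 to 0.61 and Cox8a -0.17 to 0.85. The causes were not tested. Differences below about the spread between libraries could not be resolved at 2 libraries a group.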
